A study of Homo sapiens with 6 samples.

Results

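The small (40S) subunit of the cytoplasmic ribosome binds the mRNA and reads its codons, and its proteins are each made from a separate nuclear gene. The 28 genes described here code for such proteins and were found by an exact match of the gene symbol in the deposited table of 41656 loci, of which 27678 carry a symbol. All 28 were found, and for RPS18, which has 6 rows, the row with the highest mean level was kept, the other 5 being listed at 0.

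Ribosomal proteins of the small subunit assemble on 18S rRNA, most of them while the pre-rRNA is still being cut in the nucleolus, and loss of a single protein can block a step of this maturation. Their mRNAs are among the most abundant in growing cells. They belong to the TOP class, whose transcripts begin with a C followed by a run of pyrimidines and whose translation is controlled together through mTOR and LARP1.

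The study asked which mRNAs depend on PAX9, an RNA polymerase II transcription factor of the paired-box family. MCF10A cells, an established non-tumorigenic human breast epithelial line, received a non-targeting siRNA (siNT, 3 samples) or siRNAs against PAX9 (siPAX9, 3 samples), each at 30 nM for 72 hours, and poly(A)+ RNA was sequenced. The table gives 1 pooled FPKM (a fragment count divided by transcript length in kilobases and by the size of the library) per gene and group and no value per sample, so no spread between samples can be given, and the differences below were not tested here. The table holds no read counts, so the number of reads behind each value is unknown.

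PAX9 itself was listed at 2.80 FPKM in siNT and 0.325 in siPAX9, a log2 ratio of -3.10, in a row that runs well past the end of the gene. All 8 markers of basal breast epithelium were present, at 31.4 to 1718 FPKM in siNT and 25.3 to 2088 in siPAX9. ESR1 and PGR, which define hormone-responsive luminal cells, summed to 0.0572 and 0.317 FPKM. The summed markers of other cell types were 0.532 and 4.20 FPKM for 3 fibroblast genes, 2.58 and 0.505 for 2 endothelial genes, and 0.0166 and 0.0922 for 2 leukocyte genes, with CD3E at 0 in both groups. Single genes carried the fibroblast and endothelial sums, COL1A1 with 0.454 and 4.13 FPKM and PECAM1 with 2.58 and 0.495 FPKM, while COL1A2 and CDH5 were at or near 0.

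Every one of the 28 small-subunit genes had a lower FPKM in siPAX9 than in siNT. Their summed level was 27981 FPKM in siNT and 15790 in siPAX9, which is 56.4% of the control. As a share of the FPKM of all loci with a symbol, they made up 4.89% in siNT and 3.33% in siPAX9. The median log2 ratio (siPAX9 over siNT) of the 28 genes was -0.77, with quartiles of -0.90 and -0.64. Over the 22043 loci with a mean level of at least 1 FPKM the median was -0.03, and 52.1% of these loci were lower by any amount. Highly expressed genes leaned the same way to a lesser degree: of the 1350 loci with a symbol and a mean of at least 50 FPKM, 68.1% were lower and the median was -0.26. How the libraries were scaled to each other is not given in the sources used here. Rescaling both groups to the same total moved all log2 ratios up by 0.19, and the median of the 28 genes was then -0.57. Rows without a symbol made up 87.1% of that total in siNT and 87.7% in siPAX9, so they mostly set this scaling.

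Of the 28 genes, 6 (21.4%) were at least 2-fold lower: RPS28, RPS9, RPS2, RPS6, RPSA and RPS23. The same held for 8.94% of all loci with a mean of at least 1 FPKM and for 7.56% of the loci with a symbol and a mean of at least 50 FPKM. None of the 28 was at least 2-fold higher, against 12.9% of all loci. At a 1.5-fold threshold 22 of the 28 were lower, against 19.7% of all loci. With both groups rescaled to the same total 4 genes remained past 2-fold, without RPSA and RPS23, against 6.39% of all loci. When the ratios were centred on the loci with a symbol and at least 50 FPKM, 3 remained, namely RPS28, RPS9 and RPS2, against 5.81% of all loci. A further 18 genes lay between -1 and -0.5, and 4 lay above -0.5.

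**Figure D1:**
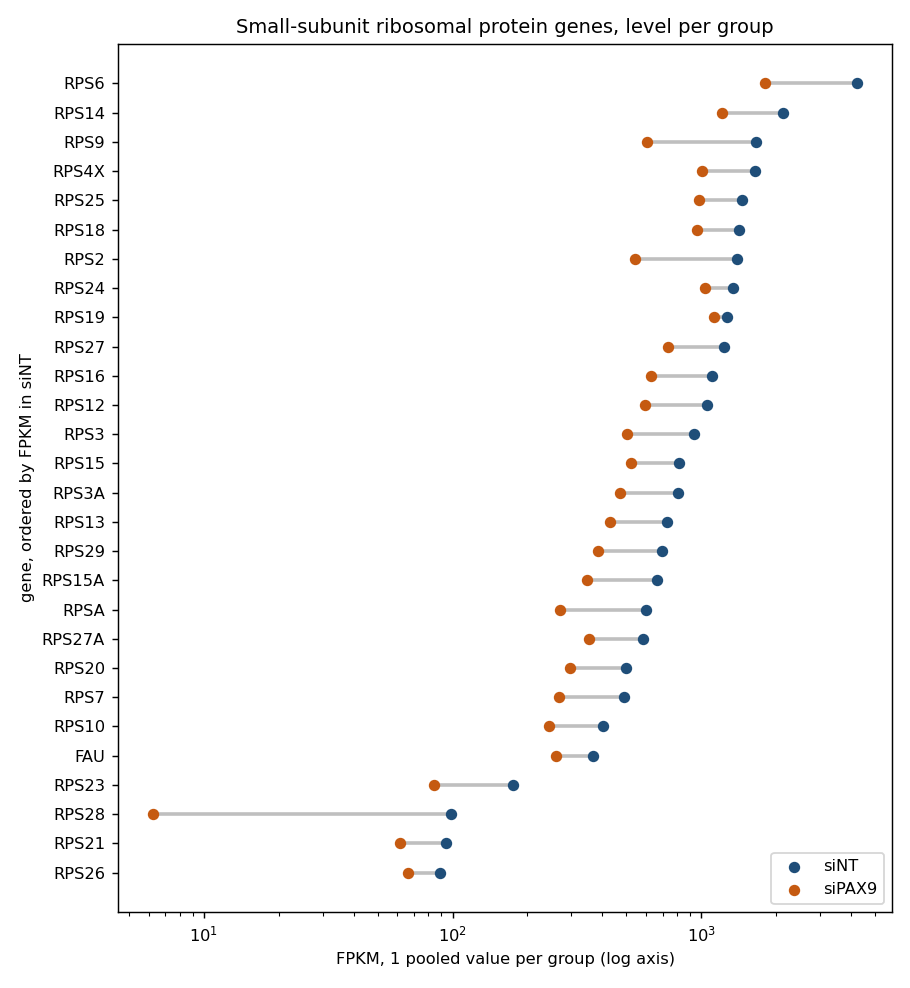
FPKM of each small-subunit gene (horizontal log axis) in siNT (blue) and siPAX9 (orange), 1 pooled value per group with no error available, ordered by the level in siNT. Each orange point lies to the left of its blue point, by the widest margin for RPS28 (98.6 to 6.23 FPKM) and the narrowest for RPS19 (1266 to 1128 FPKM).

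Levels per length ranged widely within the group. RPS6 was the highest in both groups, at 4241 FPKM in siNT, where it ranked 12 among all loci with a symbol, and 1801 FPKM in siPAX9. It was followed in both groups by RPS14, a platform protein whose gene is deleted in 5q- syndrome, at 2128 and 1211 FPKM. The lowest levels in siNT were those of RPS26 (89.4 FPKM), RPS21 (93.8 FPKM) and RPS28 (98.6 FPKM). Unnamed loci that match these genes, described below, reached up to 39149 FPKM in siNT (RPS14), while others lay below their gene (RPS9, at most 562). How reads were shared between the genes and such loci was not tested, so levels and ranks may depend on read placement. In siNT 12 genes reached 1000 FPKM, and in siPAX9 5 did. The order of the genes was largely kept, with a Spearman rho of 0.96 between the groups over the 28 genes, which share the same libraries. The level in siNT showed no rank relation to the log2 ratio (rho -0.05, 28 genes).

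The TOP feature was looked for at the annotated transcription starts. RefSeq start windows of the GRCh38.p14 build were found for 25 of the 28 genes and not for RPS2, RPS15A and RPS20. A C followed by at least 4 pyrimidines, on the coding strand and beginning within 10 bases of the start, was present in 23 of the 25 (92.0%), against 33.5% of all 35116 windows in the RefSeq set. For 19 of the 25 (76.0%) the run began at the annotated start itself, against 4.07% of all windows, a count added after the first was seen. For RPS19 and RPS27A, which have several listed starts, both counts used the start nearest to a run. The shares of all windows counted every listed start, with no such choice. Shown here are the 10 bases before and the 20 bases from the start, with the run in capitals from its C nearest to the start (pyrimidines directly before that C stay in lower case), for the genes at least 2-fold lower and then for the 3 genes with the smallest differences, so that both ends of the range can be compared.
RPS28 (chr19:8321486-8321515, plus strand): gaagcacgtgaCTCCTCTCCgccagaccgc
RPS9 (chr19:54200848-54200877, plus strand): gcttccgcgcCTCTTTCTCagtgaccgggt
RPS6 (chr9:19380217-19380246, minus strand): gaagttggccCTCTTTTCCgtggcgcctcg
RPSA (chr3:39406710-39406739, plus strand): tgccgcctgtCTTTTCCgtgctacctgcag
RPS23 (chr5:82278335-82278364, minus strand): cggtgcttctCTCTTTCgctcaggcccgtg
RPS19 (chr19:41860245-41860274, plus strand): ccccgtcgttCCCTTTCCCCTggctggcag
RPS24 (chr10:78033853-78033882, plus strand): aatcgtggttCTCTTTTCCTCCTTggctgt
RPS26 (chr12:56041908-56041937, plus strand): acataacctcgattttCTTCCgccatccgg
Counted from that C, the run was 9 bases long in RPS28, RPS9 and RPS6, 7 in RPSA and RPS23, 11 in RPS19, 14 in RPS24 and 5 in RPS26. It began 1 base after the annotated start in RPS28 and 6 bases after it in RPS26. Among the 25 genes, those with a run at the start had a median log2 ratio of -0.77 (19 genes) and those without had -0.78 (6 genes). RPS4X and RPS29 had no such run within 10 bases, and their log2 ratios were -0.70 and -0.86.

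A further 4 short motifs were searched on both strands of the windows from 250 bases before to 50 after the start. None of the 4 contains another, although the reverse strand of CCGGAA can overlap a pyrimidine run. CCGGAA, the core of ETS-family sites, was in 15 of 25 windows (60.0%, against 17.2% of all windows). GGGCGG, the GC box, was in 15 of 25 (60.0%, against 45.0%). AAGATGG, the core of YY1 sites, was in 4 of 25 (5.84% of all windows), and TATAAA was in 2 of 25 (11.5% of all windows). The median log2 ratio was -0.81 with GGGCGG (15 genes, 5 of them at least 2-fold lower) and -0.59 without it (10 genes, none of them). RPS2, the other gene past 2-fold, has no window and is not in this split. Of all loci with a mean of at least 1 FPKM, 8.94% were at least 2-fold lower, and a link with the motif was not tested. With CCGGAA the median log2 ratio was -0.75, and without it -0.81. It was -0.77 both with and without AAGATGG, and -2.44 with TATAAA (2 genes, RPS28 and RPS3) and -0.75 without it.

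RPS28 differed the most of the 28 genes. It codes for eS28, a protein of the head next to the mRNA exit channel, and was at 98.6 FPKM in siNT and 6.23 in siPAX9, which is 6.32% of the control (log2 ratio -3.98, 15.8-fold lower). The gene lies on the plus strand of chr19:8386042-8388224 (GRCh37), and its coding sequence is split over 3 exons of 39, 48 and 120 bases. The coding sequence is shown because a copy of it lies elsewhere in the genome, with the middle coding exon in capitals.
RPS28 (coding sequence, chr19:8386415-8386956, GRCh37, plus strand): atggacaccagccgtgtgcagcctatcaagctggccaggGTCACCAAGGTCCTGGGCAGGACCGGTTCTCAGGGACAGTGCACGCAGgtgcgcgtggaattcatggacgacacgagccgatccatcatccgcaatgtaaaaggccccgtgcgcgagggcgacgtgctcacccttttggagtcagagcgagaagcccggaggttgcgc
The 207 bases are identical (100%) to an uninterrupted stretch of the pseudogene RPS28P7 at chr11:82400601-82400807 (plus strand), which lies within an unnamed row of the table. That row (chr11:82400580-82400970) was at 2189 FPKM in siNT and 175 in siPAX9, a log2 ratio of -3.65. How reads were shared between the gene and this copy was not tested, and the very high FPKM of the 391-base row is not comparable with that of the gene. The row behind the RPS28 value spans chr19:8386384-8408146, well past the end of the gene, so it may also hold reads from outside it.

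RPS9, RPS2 and RPS3 code for uS4, uS5 and uS3, which line the channel where the mRNA enters the subunit. RPS9 (chr19:54704677-54752862, plus strand) was at 1659 FPKM in siNT and 606 in siPAX9, a log2 ratio of -1.45. RPS2 (chr16:2012059-2014842, minus strand) was at 1397 and 542 FPKM, a log2 ratio of -1.37. RPS3, in contrast, was at 932 and 502 FPKM (log2 ratio -0.89) and so stayed within 2-fold. Among the 28 genes RPS9 went from rank 3 in siNT to rank 10 in siPAX9, and RPS2 from rank 7 to rank 12.

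RPS6 (chr9:19375713-19380234, minus strand) codes for eS6, the main target of the S6 kinases. Its log2 ratio was -1.24, and its share of the summed FPKM of the 28 genes was 15.2% in siNT and 11.4% in siPAX9. RPSA (chr3:39448207-39467746, plus strand), which codes for uS2 and is also known as the laminin receptor, was at 600 FPKM in siNT and 270 in siPAX9 (log2 ratio -1.15). RPS23 (chr5:81569139-81574215, minus strand) codes for uS12 of the decoding centre and was at 175 and 84.3 FPKM (log2 ratio -1.05). RPSA and RPS23 were the nearest to the 2-fold line among the 6.

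At the other end, RPS19 differed the least. This gene of a head protein, the one most often mutated in Diamond-Blackfan anemia, was at 1266 FPKM in siNT and 1128 in siPAX9 (log2 ratio -0.17, or 89.1% of the control). Its direction depended on the scaling, with log2 ratios of 0.03 after rescaling to the same total and 0.09 when centred on the loci with a symbol and at least 50 FPKM. Its rank among the 28 went from 9 to 3, and its share of their summed FPKM from 4.53% to 7.14%. RPS24, another gene of that anemia, was at 1343 and 1032 FPKM (log2 ratio -0.38), with a share of 4.80% in siNT and 6.53% in siPAX9. RPS26, whose protein lies at the mRNA exit channel, was at 89.4 and 66.4 FPKM (log2 ratio -0.43). FAU, which codes for eS30 fused to a ubiquitin-like protein, was at 368 and 261 FPKM (log2 ratio -0.50).

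The remaining genes lay close together. The platform genes RPS14 and RPS3A had log2 ratios of -0.81 and -0.77, with RPS3A at 804 FPKM in siNT and 472 in siPAX9. RPS13 and RPS15A, which code for the rRNA-binding proteins uS15 and uS8 of the body, had -0.77 and -0.93. The body genes RPS7, RPS4X and RPS21 had -0.86, -0.70 and -0.61, with RPS21 at 93.8 and 61.4 FPKM. The head genes RPS12, RPS15, RPS16, RPS18 and RPS25 had -0.82, -0.65, -0.81, -0.57 and -0.57. RPS10 and RPS20, whose proteins are ubiquitinated by ZNF598 on stalled ribosomes, had -0.73 and -0.75. RPS27 and RPS29, which code for zinc-binding proteins, had -0.75 and -0.86, and RPS27A, made as a fusion with ubiquitin, had -0.72. The rows of RPS10, RPS27A and RPS3A also carry other symbols (NUDT3 and RPS10-NUDT3, MIR4426, and SNORD73A), so their values may hold reads of those genes. The rows of FAU and RPS25 extend well beyond their genes and may hold reads from outside them. Without the 3 rows with further symbols the median of the other 25 genes was -0.81.

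**Figure D2:**
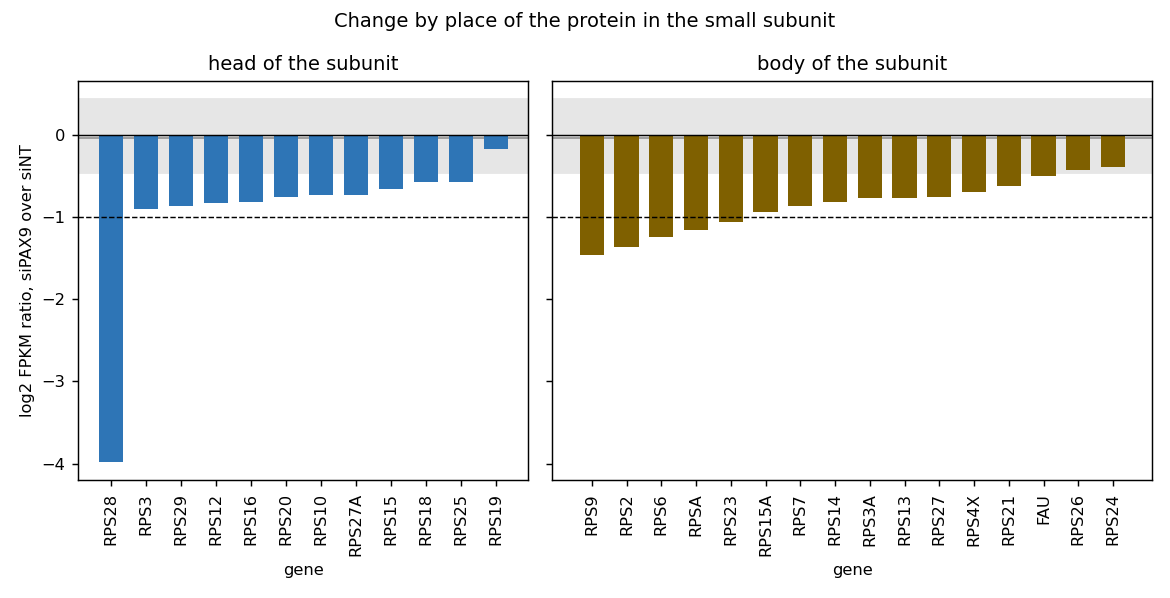
Log2 FPKM ratio (siPAX9 over siNT, vertical axis) of the genes for proteins of the head (12 genes, left) and the body (16 genes, right), 1 value per gene with no error available. The grey band runs from the lower to the upper quartile of all loci (-0.46 to 0.44), the grey line is their median, and the dashed line marks 2-fold lower, which 1 head gene and 5 body genes pass.

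Grouped by place in the subunit, 1 of 12 head genes (RPS28) and 5 of 16 body genes were at least 2-fold lower. The head share of 8.33% is near the 8.94% of all loci, and the body share is 31.2%. The medians nevertheless lay only 0.05 apart, at -0.74 for the head and -0.79 for the body. The 13 genes for universal proteins, those shared with bacteria and archaea, had a median of -0.86 with 4 at least 2-fold lower (RPS9, RPS2, RPSA and RPS23). The other 15 had a median of -0.72 with 2 (RPS28 and RPS6). The 8 genes listed here as linked to Diamond-Blackfan anemia (RPS7, RPS10, RPS19, RPS24, RPS26, RPS27, RPS28 and RPS29) held both the smallest and the largest difference. Their median was -0.74, against -0.79 for the other 20, and the list may not be complete. By length, the 14 genes with coding sequences of 168 to 435 bases had a median of -0.70, and the 14 of 438 to 885 bases had -0.81. Across the 28 genes the Spearman rho between coding length and log2 ratio was -0.31, and -0.45 without RPS28. The genes lie on 16 chromosomes, with 5 on chromosome 19, which holds RPS28, RPS9 and RPS19.

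RACK1, the WD-repeat scaffold on the head of the subunit, is not among the 28 and was lower as well, at 2168 FPKM in siNT and 1109 in siPAX9 (log2 ratio -0.97).

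RPS27L went the other way. This paralogue of RPS27, a known p53 target, was at 49.9 FPKM in siNT and 74.3 in siPAX9, a log2 ratio of 0.57. RPS27 was at 1232 and 733 FPKM, so the ratio of RPS27 to RPS27L per length was 24.7 in siNT and 9.87 in siPAX9. Their coding sequences are shown to let their likeness be seen, since both are 252 bases long, with the differing bases in capitals.
RPS27 (chr1:153963273-153964566, GRCh37, plus strand): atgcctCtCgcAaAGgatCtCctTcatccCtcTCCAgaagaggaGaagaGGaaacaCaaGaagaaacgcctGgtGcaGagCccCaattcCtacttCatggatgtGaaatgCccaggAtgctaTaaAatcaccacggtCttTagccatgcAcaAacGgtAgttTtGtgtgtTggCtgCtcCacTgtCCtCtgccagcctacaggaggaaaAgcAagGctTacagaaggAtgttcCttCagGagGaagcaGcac
RPS27L (chr15:63446234-63449604, GRCh37, minus strand): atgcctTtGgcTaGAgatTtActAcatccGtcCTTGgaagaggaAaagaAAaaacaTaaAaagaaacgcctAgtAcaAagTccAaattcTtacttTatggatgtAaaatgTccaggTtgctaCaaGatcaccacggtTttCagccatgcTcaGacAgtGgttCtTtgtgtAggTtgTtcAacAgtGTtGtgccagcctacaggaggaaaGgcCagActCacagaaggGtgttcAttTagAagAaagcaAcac
They differ at 56 positions, an identity of 77.8%, with no gaps. The unnamed loci that match each gene, described next, differed in the same directions, with a median of -0.52 over 5 loci for RPS27 and log2 ratios of 0.69 and 1.17 at the 2 loci of RPS27L. The one at 1.17 lies within the RPS27L gene itself and is weak (0.631 FPKM in siNT, 1.42 in siPAX9), and the one at 0.69 lies on RPS27P27, a pseudogene named after RPS27.

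Ribosomal protein genes have many processed copies in the genome, and the table lists reads there as well. Of the 13978 loci without a symbol, 12972 of up to 2000 bases were compared with the annotated coding transcripts, and 120 of them matched one of the 28 genes best (at least 90% identity over at least 80% of the locus). On an annotated pseudogene lay 119 of these, and for 87 of the loci that pseudogene is named after the matched gene. Of the 120 loci 115 were lower in siPAX9 and 5 higher, where 47.9% of all loci without a symbol and with a mean of at least 1 FPKM were lower. At least 2-fold lower were 43 (35.8%), against 11.7% of the same unnamed loci, and the median log2 ratio of the 120 was -0.87. RPSA alone has 19 of these loci and RPS2 has 12, both genes past 2-fold themselves. Loci of 1 gene are not separate cases, so these shares are not directly comparable.

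The differences at these loci followed those of the genes. The 26 genes with at least 1 matched locus (none was found for RPS13 and RPS21) all had a negative median at their loci, and for 21 of them it lay within 0.25 of the gene's own log2 ratio. Across the 26 genes Spearman's rho was 0.80, and 0.77 without RPS28. Matched loci of RPS9 had a median of -1.29 (3 loci), those of RPS2 -1.38 (12 loci), those of RPS6 -1.13 (6 loci) and those of RPSA -1.23 (19 loci). Those of RPS23 had a median of -0.97 (2 loci). Of the 6 genes at least 2-fold lower, 5 thus also had a median past 2-fold at their loci. For RPS19 the 2 loci had a median of -0.04. Loci of RPS25 (1 locus, -1.05) and RPS29 (4 loci, -0.44) lay farther from their genes, at -0.57 and -0.86. Reads that match both a gene and its copies may enter both values, so the loci cannot be taken as independent measurements. How much of each gene's value rests on such reads was not tested. Rows that carry a pseudogene symbol were few. Of the 8 with a mean of at least 1 FPKM, 7 were lower, among them RPSAP58 (525 FPKM in siNT, 232 in siPAX9) and RPS14P3 (693 and 353 FPKM).

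**Figure D3:**
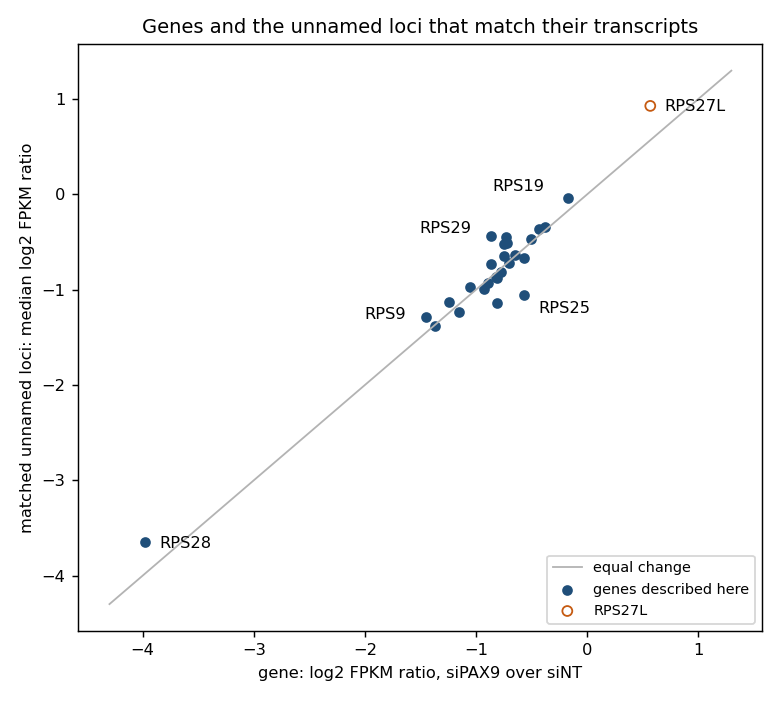
Log2 FPKM ratio of each gene (horizontal axis) and median log2 FPKM ratio of the unnamed loci matched to it (vertical axis), with filled points for the 26 small-subunit genes with such loci and an open point for RPS27L. The points lie along the line of equal change, with RPS28 at -3.98 and -3.65 and RPS27L alone in the upper right at 0.57 and 0.93.

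Set beside other gene groups, the small-subunit genes were nearest to those of the large subunit and of other TOP mRNAs. All 47 large-subunit genes were lower, 7 of them at least 2-fold (14.9%, against 8.94% of all loci). Their median of -0.73 was 0.04 above that of the small subunit. The largest differences there were those of RPL3 (1472 FPKM in siNT, 440 in siPAX9) and RPL10A (1135 and 359 FPKM). Relative to the large-subunit median, 18 of the 28 small-subunit genes were lower, the median was -0.04, RPS28 alone was past 2-fold, and RPS19, RPS24 and RPS26 were higher, at 0.56, 0.35 and 0.30. The 13 other TOP mRNA genes, most of which code for translation factors or RNA-binding proteins, were all lower with a median of -0.80, led by HNRNPA1 (255 and 97.4 FPKM) and EIF4B (268 and 110 FPKM).

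Genes tied to the small subunit in other ways differed less. Of 29 genes for small-subunit proteins of the mitochondrial ribosome, which is built separately, 27 were lower and 2 higher, with 1 at least 2-fold lower (MRPS27, 68.6 and 30.5 FPKM) and a median of -0.38. Of all loci with a mean of at least 1 FPKM, 52.1% were lower by any amount. At least 2-fold lower were 8.94% of all loci and 3.45% of the 29 genes. Of 27 genes for factors that assemble, modify or regulate the small subunit, 23 were lower and 4 higher, with a median of -0.24. Among these NOB1, the endonuclease that makes the 3' end of 18S rRNA, was at 87.7 FPKM in siNT and 32.1 in siPAX9 (log2 ratio -1.45). RIOK3, a kinase of late 40S particles, was at 23.9 and 37.2 FPKM (0.64).

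**Figure D4:**
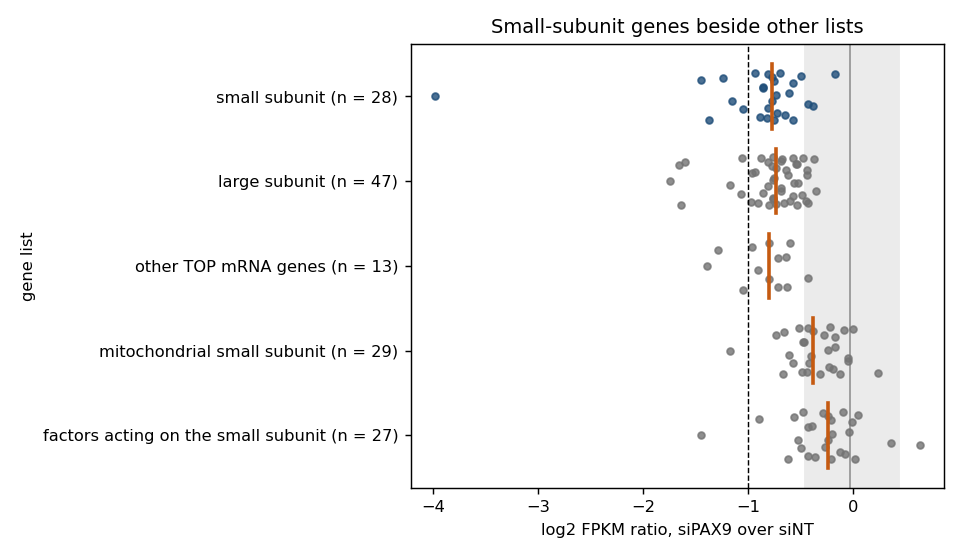
Log2 FPKM ratio (siPAX9 over siNT, horizontal axis) of every gene in 5 lists, 1 point per gene with no error available, the orange bar marking each median. The medians run from -0.80 for other TOP mRNA genes, through -0.77 and -0.73 for the small and large subunit, to -0.38 and -0.24 for the mitochondrial small subunit and for factors acting on the small subunit, and the grey band marks the quartiles of all loci (-0.46 to 0.44).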

How the data were processed

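RNA was taken from 3 siNT and 3 siPAX9 samples of MCF10A cells, and poly(A)+ libraries were sequenced from a single end. Within Partek Flow, the authors used Bowtie 2 for alignment to hg19 and Cufflinks for quantification. They deposited 1 FPKM per locus and group, in which the 3 samples are joined. Bowtie 2 does not split reads across introns, and the handling of reads with several alignments, of strand and of scaling between libraries is not given in the sources used here. Columns with the authors' own fold changes, test statistics, p- and q-values were not used.

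Log2 ratios (siPAX9 over siNT) were taken with no pseudocount and no test, and called at 2-fold. Backgrounds used loci with a mean of at least 1 FPKM. The 28 genes and all lists were chosen with earlier results of these data known. Values are given for genes past 2-fold, the 3 highest and lowest levels, the 3 smallest differences, RACK1 and RPS27L, and up to 2 genes per direction of other lists. Other members' values were added to these after they were seen, and some further small-subunit genes are not reported here. Positions are from GENCODE lifted to GRCh37. Unnamed loci were matched with blastn 2.17.0 (word size 28) against 19553 canonical coding transcripts. Scripts ran in Python 3.11.15 with pandas 2.3.3 and were tested on simulated data.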

Additional observations from a re-analysis of the deposited data

How the results depend on the processing

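With 1 pooled value per group, no sample could be left out, and the reads behind each value and the spread between samples are unknown, so no difference here is tested against replicate error. No paired analysis was possible because the deposited columns carry no replicate numbers. Adding 0.1 or 1 FPKM, centring on all loci, summing the rows of a symbol, and other filters on low values left the count of 6 genes at least 2-fold lower and all directions as reported. The count was 22 at a 1.5-fold threshold and 1 (RPS28) at 4-fold. Centring on the large-subunit genes (median -0.73) left 1 gene past 2-fold, 18 genes below no change and a median of -0.04, and put RPS19 at 0.56, RPS24 at 0.35 and RPS26 at 0.30. Rescaling to the same total gave 4 genes past 2-fold and RPS19 at 0.03. Centring on loci with a symbol and at least 50 FPKM, an alternative chosen after seeing the data, gave 3 genes and RPS19 at 0.09. Over all alternatives but the large-subunit centring, the median ranged from -0.81 to -0.51, and the head minus body difference from 0.03 to 0.06. The small minus large subunit difference was -0.09 with only rows of 1 symbol and -0.04 otherwise.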
